A study of Arabidopsis thaliana with 6 samples.

Results

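The loci described here are the small RNA (sRNA) loci numbered cluster 8 in the deposited table, that is every locus whose cluster column held 8, whatever its counts. They were 548 of the 1633 loci listed. The cluster number belongs to the published locus catalogue the authors aligned to, and its meaning was not given in the sources used here. The working description of these loci as mostly pericentromeric repeats was checked against the assembly: 487 of 548 (88.9%, Wilson 95% interval 86 to 91.2%, counting error only) lay in gene-poor bins, and 506 (92.3%) had a near-identical copy elsewhere in the genome. A gene-poor bin was a 500 kb window with protein-coding gene coverage under 0.5 times the median of its chromosome, and 42 of 240 windows met this. The Wilson interval treats loci as independent, but they lay in blocks that fall in or out of a window together. Windows of 250 kb gave 93.4%, outside that interval. A near-identical copy was an alignment of at least 50 bp at 95% identity or more.

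Small RNAs of 5-week-old inflorescences of Arabidopsis thaliana were sequenced from wild-type plants of the accession Col-0 (3 libraries) and from ndx1-4, a T-DNA insertion line (WiscDsLox344A04) in the Col-0 background that disrupts NODULIN HOMEOBOX (NDX, AT4G03090), a plant-specific transcriptional regulator (3 libraries). Both genotypes were untreated and grown side by side, each library came from pooled RNA of several plants, and the mutant was represented by 1 insertion allele. The question addressed by the comparison was how sRNA loci differ between ndx1-4 and Col-0 flowers. The table gave reads per locus and library as raw counts, with no strand.

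In plants, RNA polymerase IV and the RNA-dependent RNA polymerase RDR2 turn repeats and transposons into double-stranded RNA, which DCL3 cuts into heterochromatic small interfering RNAs. These are loaded into ARGONAUTE4 and guide DNA methylation back to the sequences they came from. Tandem repeats near the centromeres, the centromere satellite and the ribosomal RNA (rRNA) gene arrays are well-known sources of such siRNAs, while fragments of tRNA and rRNA transcripts also enter sRNA libraries without passing through this pathway.

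The 548 loci were grouped by sequence. Loci were joined where an alignment of at least 80% identity covered at least 80% of the shorter locus, a definition chosen after the sequences had been looked at. This gave a family of 306 loci built from a repeat unit of about 506 bp, a family of 204 loci built from a unit of 178 bp, 28 loci of a tRNA gene array, and 2 pairs of loci within the 45S rRNA genes, described together as 4 loci. The other 6 loci joined no family. Both repeat families together held 510 loci (93.1%). At 90% identity the largest families held 303, 189 and 28 loci.

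Repeat sequences are shown because they define what was counted at nearly all of these loci. They were read from the plus strand of the RefSeq assembly TAIR10.1, whose nuclear coordinates are those of the TAIR10 build of the table. In the 2 adjacent units of the 178-bp family member chr2:3622913-3623672 and in the first bases of the most abundant 506-bp family member, chr5:11184537-11186807, capitals mark a base found in at least 90% of the aligned copies among the family's own loci (658 and 734 alignments for the first and the second 178-bp unit, 505 for the 506-bp unit). The 2 units were identical at 164 of 178 positions (92.1%).
chr2:3622913-3623090: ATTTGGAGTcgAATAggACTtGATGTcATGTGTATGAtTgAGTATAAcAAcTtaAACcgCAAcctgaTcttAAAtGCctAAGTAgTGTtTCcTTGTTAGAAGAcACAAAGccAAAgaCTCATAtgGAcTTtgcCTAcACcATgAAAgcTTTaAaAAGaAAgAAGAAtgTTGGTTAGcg
chr2:3623091-3623268: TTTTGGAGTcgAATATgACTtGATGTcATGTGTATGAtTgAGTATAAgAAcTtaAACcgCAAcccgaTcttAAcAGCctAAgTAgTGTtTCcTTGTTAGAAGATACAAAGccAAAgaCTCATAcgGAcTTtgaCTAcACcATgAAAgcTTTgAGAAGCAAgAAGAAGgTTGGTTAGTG
chr5:11184537-11184836: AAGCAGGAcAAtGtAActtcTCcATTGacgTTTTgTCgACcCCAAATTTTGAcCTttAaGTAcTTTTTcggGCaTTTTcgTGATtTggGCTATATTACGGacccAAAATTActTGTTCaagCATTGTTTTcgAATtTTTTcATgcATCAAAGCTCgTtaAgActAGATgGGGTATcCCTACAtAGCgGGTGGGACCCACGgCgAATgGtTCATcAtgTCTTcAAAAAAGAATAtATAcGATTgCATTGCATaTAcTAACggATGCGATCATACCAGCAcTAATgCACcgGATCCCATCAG
By this measure 126 and 132 of the 178 bases were capitals in the 178-bp units, and 228 of 300 in the 506-bp stretch.

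Whole short loci are shown with the same capitals, because they include the shortest member (chr5:12828500-12828539, 40 bp) and the member with the lowest fold change of those averaging 50 normalised counts or more (chr3:14184631-14184704, 74 bp), both of the 506-bp family.
chr3:14184631-14184704: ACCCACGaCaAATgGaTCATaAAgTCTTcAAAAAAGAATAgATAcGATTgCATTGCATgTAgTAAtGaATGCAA
chr5:12828500-12828539: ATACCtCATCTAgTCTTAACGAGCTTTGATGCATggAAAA
The next sequences show the rest of the set: a part of a tRNA array locus with the tRNA-Tyr gene AT1G57470 in capitals, the start of a locus in the 45S rRNA gene with the end of the 18S gene (AT3G41768) and the start of the 5.8S gene (AT3G41979) in capitals, and, all in lower case, a locus in no family.
chr1:21305267-21305466: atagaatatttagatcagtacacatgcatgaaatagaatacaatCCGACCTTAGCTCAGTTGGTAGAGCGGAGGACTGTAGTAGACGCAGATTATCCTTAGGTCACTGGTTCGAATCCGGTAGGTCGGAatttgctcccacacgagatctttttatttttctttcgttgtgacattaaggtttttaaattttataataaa
chr3:14199458-14199757: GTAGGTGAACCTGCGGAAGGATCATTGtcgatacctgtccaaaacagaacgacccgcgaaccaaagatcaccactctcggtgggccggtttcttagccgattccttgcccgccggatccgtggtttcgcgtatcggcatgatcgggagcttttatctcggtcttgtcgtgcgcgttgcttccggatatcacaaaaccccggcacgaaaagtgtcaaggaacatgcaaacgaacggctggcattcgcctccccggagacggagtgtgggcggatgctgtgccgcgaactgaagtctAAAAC
chr4:10112420-10112502: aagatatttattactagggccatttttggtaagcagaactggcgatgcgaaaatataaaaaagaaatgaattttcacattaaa

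The unit lengths came from the distance between a 12-base word and its next occurrence in the same locus. In the 506-bp family the most frequent distances were 506, 505 and 502 bp, and 61.3% of all such pairs lay 496 to 516 bp apart. In the 178-bp family 178 bp alone made up 37.2% of the pairs, followed by 356 bp with 11.1%, which is the distance across a pair of units. The 178-bp unit is the length of the Arabidopsis centromere satellite, and the pericentromeres of chromosomes 3, 4 and 5 are known to carry tandem 5S rRNA gene arrays. RefSeq annotates no such arrays and had no gene at 297 of the 306 loci of the 506-bp family, so the family is called by its unit. Whether this unit is the 5S rRNA gene repeat was not tested.

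**Figure D1:**
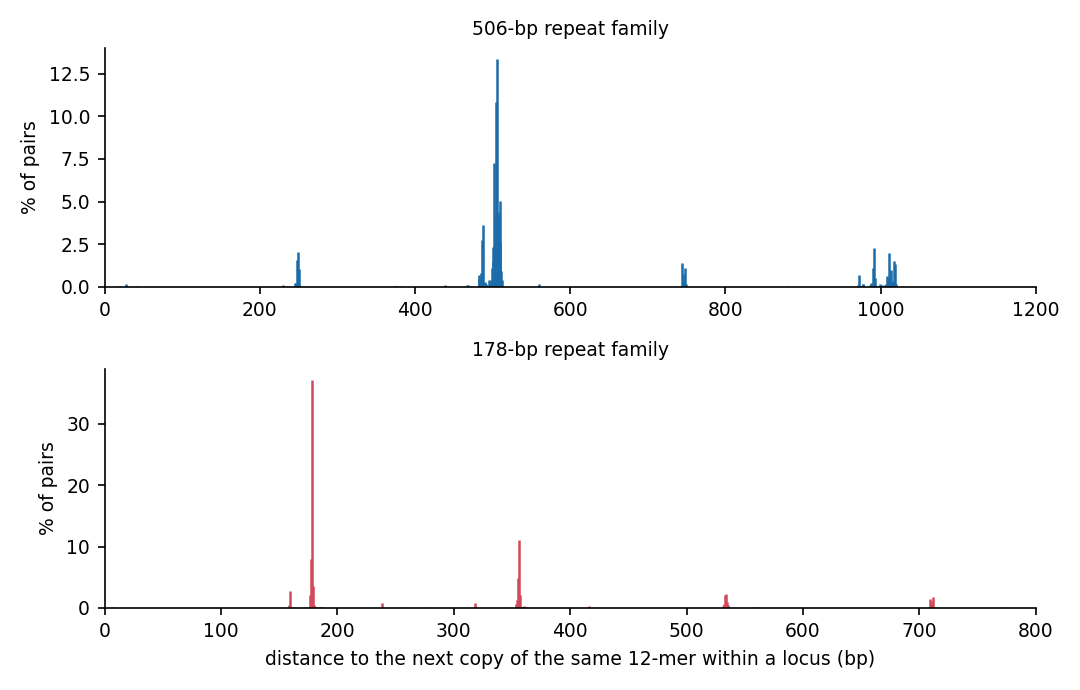
Distance in bp from a 12-base word to its next occurrence within a locus (x) and the percentage of all such pairs in the family (y), for the 506-bp family (top) and the 178-bp family (bottom). The tallest line stands at 506 bp in the first and at 178 bp in the second, with further lines near multiples of the unit.

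Positions differed between the families. The 306 loci of the 506-bp family all lay in gene-poor bins, with 211 on chromosome 3 between 13532719 and 14225286, 65 on chromosome 5 between 12807283 and 12870361, and 15 on chromosome 4 between 3054337 and 3061578. The block on chromosome 4 was the most compact, its 15 loci covering 99.9% of 7.24 kb, whereas the 211 loci on chromosome 3 covered 24.4% of 693 kb. The 178-bp family lay on all 5 chromosomes, with 100 loci on chromosome 5 between 11650533 and 12063338, 34 and 29 loci in separate blocks of chromosome 4, 23 on chromosome 1, 15 on chromosome 2 and 3 on chromosome 3. Of its 204 loci, 175 (85.8%) lay in gene-poor bins, and the other 29 belonged to the block on chromosome 4 between 2919428 and 3047380. None of the 28 tRNA array loci, at chr1:21268821-21307117, was in a gene-poor bin. For comparison, 44.1% of all 1633 listed loci, 60.8% of the 130 loci of cluster 6 and 74.6% of the 71 loci of cluster 9 were in gene-poor bins.

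Most of these loci lay outside annotated genes. RefSeq had no gene at 492 of 548, against 1166 of 1633 in the whole list. Protein-coding genes overlapped 12 of them and tRNA genes 29, and miRNA, snRNA and snoRNA genes overlapped 0. All 4 listed loci that overlapped an rRNA gene annotated in RefSeq were in cluster 8. RefSeq does not annotate the tandem pericentromeric rRNA gene arrays named above, so loci within such arrays would not be in this count. No locus overlapped NDX or FLC (AT5G10140, the floral repressor), and the nearest lay 223612 bp and 8005089 bp away. Locus length had a median of 506 bp (40 to 5145 bp), against 372 bp over the whole list. Of the cytosines on both strands of the 178-bp family, 84.9% were in the CHH context (H is A, C or T), one that siRNA-guided methylation can target, compared with 73.6% in the 506-bp family, 51.8% at the 45S loci and 76.7% at the listed loci outside cluster 8.

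Members are not independent measurements. Reads were allowed several alignments, so that 1 read could be counted at every copy of its sequence: 123 of the 548 loci had the same 6 counts as another member, and the 548 loci held 483 distinct sets of counts. A further 140 loci of other clusters carried the sequence of one of these families, among them 36 and 17 loci of cluster 6 with the 178-bp and the 506-bp sequence, 39 and 6 of cluster 9, and 12 loci of cluster 3, outside the array, with sequence like that of the tRNA array. The 3 most abundant members of each family, aligned to the assembly at 80% identity, marked 265 kb of 506-bp sequence, of which 83.4% lay in cluster 8 loci, and 400 kb of 178-bp sequence, of which 28.3% did. The assembly holds only part of these arrays, and 43 loci of the 506-bp family and 2 of the 178-bp family contained unknown bases.

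The listed loci held 2162920 to 2935774 counts per library, which is not library depth, since the list held only loci that the authors had selected at an adjusted p under 0.05 on these same libraries. All tests here are therefore re-tests of selected loci. Over the 548 loci, log2 normalised counts correlated at r = 0.993 to 0.998 within a genotype and 0.992 to 0.997 between genotypes. Counts were divided by a size factor of each library on the scale of the authors' full table (0.836, 0.809 and 0.913 for Col-0 replicates 1 to 3, 1.24, 1.38 and 0.948 for ndx1-4 replicates 1 to 3), and are called normalised counts. This scale decides part of what follows, and values by the totals of the listed counts are given beside it.

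Cluster 8 loci carried the larger part of the listed sRNA counts. Shares here are of counts and not of reads, since 1 read could be counted at each copy of its sequence. A near-identical copy was found for 92.3% of members, against 31.2% of the other listed loci. The list was also selected on these libraries, and a difference in share carries that selection. The share of cluster 8 was 67.9%, 68.6% and 67.9% in Col-0 and 64.8%, 62.1% and 64.2% in ndx1-4. The groups did not overlap, with a mean difference of −4.45 percentage points (exact two-sided permutation test over libraries, p = 0.1, the smallest that 3 against 3 libraries allow). Within cluster 8 the 506-bp family held 60.1% of the counts, the 45S loci 18.0%, the 178-bp family 14.4%, the tRNA array 6.90% and the 6 loci in no family 0.631%. A typical locus had 2080 normalised counts in Col-0 (median of locus means), against 519 over the whole list.

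Abundance per length followed the families. The median level per kb in Col-0, in normalised counts, was 67913 at the 45S loci, 11466 in the tRNA array, 4140 in the 506-bp family and 1747 in the 178-bp family. The tRNA array loci had nearly the same count at lengths of 169 to 1096 bp. Their level per kb therefore mostly reflects locus length (Spearman rho −0.995 across 28 loci). Within the 506-bp family the compact block on chromosome 4 stood at 31191 per kb, against 7417 in the large block of chromosome 5 and 3520 on chromosome 3. Within the 178-bp family the medians per kb were 3247 and 1019 in the pair of chromosome 4 blocks and 2315 on chromosome 5. Because reads were counted at several loci, these levels describe a sequence and not a single position. Across the 306 loci of the 506-bp family the mean normalised count went with length (Spearman rho 0.70), more closely than across the 204 loci of the 178-bp family (rho 0.30). These are descriptions over loci that share libraries and reads.

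**Figure D2:**
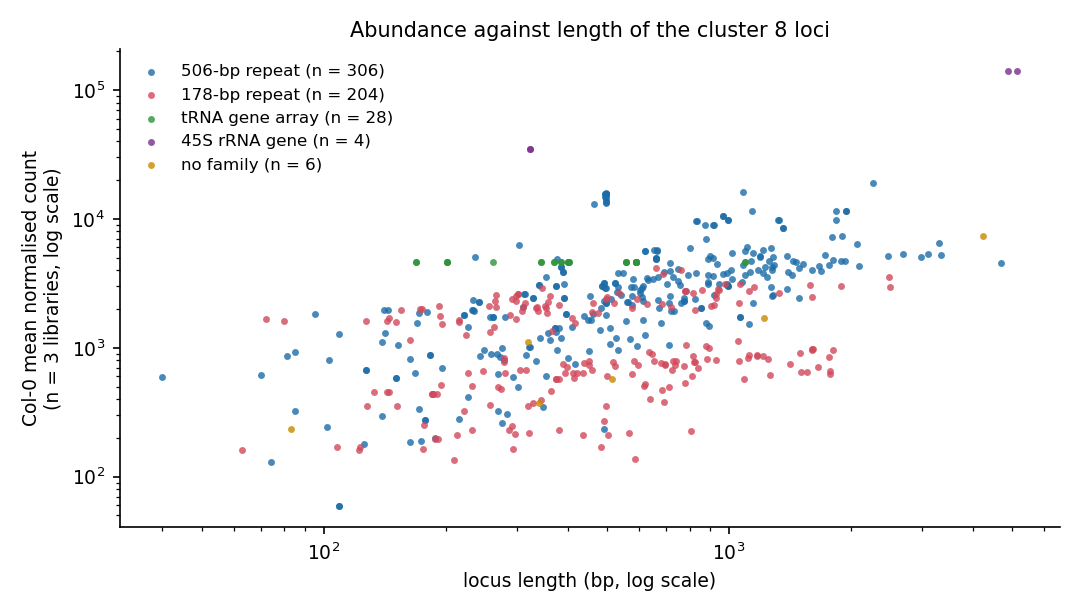
Col-0 mean normalised count (y, log scale, n = 3 libraries) against locus length in bp (x, log scale) for the 548 cluster 8 loci, 1 point a locus, coloured by family. The 4 loci of the 45S rRNA gene lie highest, the 28 tRNA array loci lie at 1 level whatever their length, and the 506-bp family rises with length.

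All 548 loci were lower in ndx1-4 on the recovered scale (edgeR quasi-likelihood test, Benjamini-Hochberg adjusted p 8.53e-05 to 0.0126), beside 60.8% of the 1626 loci tested in the whole list, but on the scale of the listed totals 15 were (background 7.06%) and on TMM factors 249 (background 25.5%). None of the 548 was called higher on any of these scales. Cluster 8 itself held 62.1 to 68.6% of the listed counts of a library, so the listed totals scale the members largely by their own counts. TMM factors rest on listed loci that were all selected for a difference. The smaller numbers called on these scales are therefore partly a product of the scale. Over the whole list 988 loci were called lower and 638 higher on the recovered scale, which is every locus tested. A call there was settled by the authors' selection, so the 60.8% compares direction only. The fold changes were small: the median log2 fold change was −0.44, with a range of −0.81 to −0.21, beside −0.32 over all loci tested. By the totals of the listed counts the median was −0.10, beside 0.02 over all loci tested, and 159 members had a positive value. On both scales, and with TMM, the median of the members lay 0.12 below that of all loci tested. A change of scale moves all loci by nearly the same step, so this gap could hardly differ between scales. All loci tested include the members and were selected in both directions, so their median is no neutral reference. In 546 of 548 loci every ndx1-4 library was below every Col-0 library on the recovered scale, beside 58.7% of all listed loci.

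A difference above 1.5-fold was found at 16 loci (beside 11.3% of the 1626 tested), of which 15 were in the 506-bp family and 1, chr4:10112420-10112502, was in no family. TMM, median-of-ratios and total scales over all listed loci gave 0, and median-of-ratios factors over the loci outside cluster 8 gave 470. The loci outside cluster 8 were selected, with 638 called higher and 440 lower on the recovered scale. Factors centred on them move every member down, so the 470 is largely a product of that scale. The number also rested on single libraries: without ndx1-4 replicate 1 it was 36, without ndx1-4 replicate 3 it was 26 and without Col-0 replicate 2 it was 9.

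Relative to the other listed loci, cluster 8 was lower in ndx1-4 whatever the library scale. The median log2 level of cluster 8 minus that of the 1085 other loci was −0.04, 0.05 and −0.03 in Col-0 and −0.81, −0.87 and −0.78 in ndx1-4, a difference of −0.82 with no overlap (exact permutation test, p = 0.1). Among those other loci 638 were called higher and 440 lower. They were selected by the authors' test on these libraries, so their median log2 fold change (0.39) reflects which direction was more frequent. The difference of −0.82 and its p-value carry that selection, and doing without a library scale does not remove it. The direction was shared by the clusters set beside it for position: on the recovered scale 112 of the 130 loci of cluster 6 were called lower (median log2 fold change −0.41) and 65 of the 71 of cluster 9 (median −0.32), and by the listed totals 5 in each (medians −0.07 and 0.02). By summed counts in place of medians the difference was −0.29 on the log2 scale, also with no overlap (exact permutation test, p = 0.1).

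The medians of the 506-bp and the 178-bp family differed in size of change. The median log2 level of the 506-bp family, relative to its Col-0 mean, was −0.05, 0.09 and −0.04 in Col-0 and −0.41, −0.55 and −0.48 in ndx1-4. That of the 178-bp family was −0.04, −0.02 and 0.05 in Col-0 and −0.28, −0.26 and −0.32 in ndx1-4. In both families every ndx1-4 library lay below every Col-0 library on the recovered scale, and the 178-bp family was the less reduced. The difference between both families needs no library scale: it was −0.01, 0.10 and −0.09 in Col-0 and −0.14, −0.29 and −0.17 in ndx1-4, a mean difference of −0.20 with no overlap (exact permutation test, p = 0.1, 1 of 6 pairs of families compared and the only pair that did not overlap). The other 5 pairs gave exact permutation p = 0.2 to 1, and adjusted over the 6 pairs none was below 0.6. The 178-bp family made up 13.3%, 13.1% and 14.0% of the cluster 8 counts in Col-0 and 15.0%, 16.3% and 14.2% in ndx1-4. Its share of all listed counts overlapped between genotypes (exact permutation test, p = 0.2). So did the share of the 506-bp family in cluster 8 counts (exact permutation test, p = 0.4). All these loci were selected on these libraries, and doing without a library scale does not remove that.

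**Figure D3:**
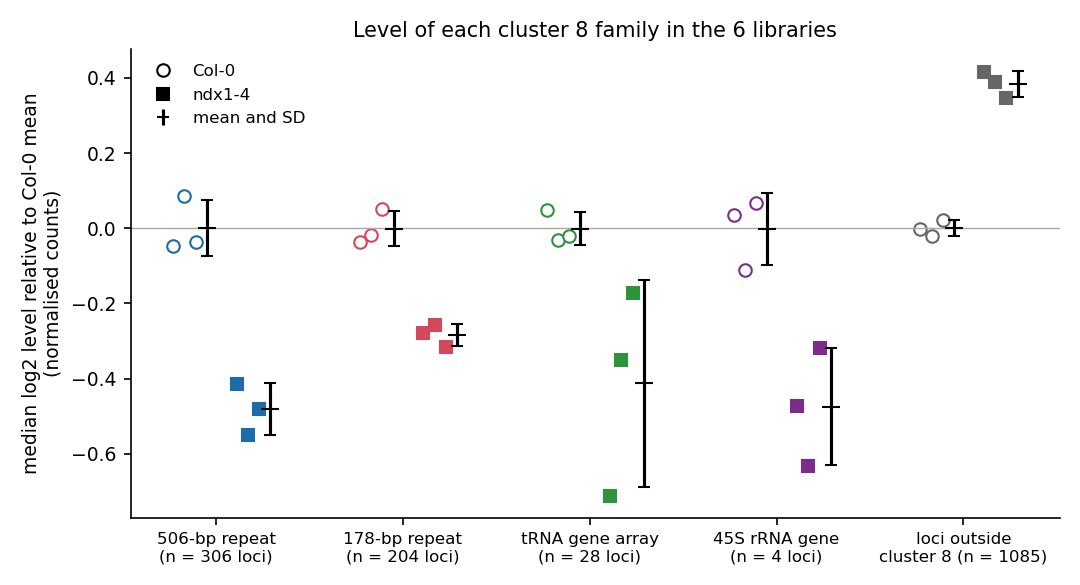
Median log2 level over the loci of each family, relative to the Col-0 mean of each locus (y, normalised counts on the recovered scale), in the 3 Col-0 (open circles) and 3 ndx1-4 (filled squares) libraries, with mean and SD. The ndx1-4 libraries lie at −0.41 to −0.55 for the 506-bp family and −0.26 to −0.32 for the 178-bp family, with a wider spread for the tRNA array, while the 1085 loci outside cluster 8 (grey) lie higher in ndx1-4; by the listed totals the median of the 178-bp family changes sign.

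The 506-bp family had log2 fold changes of −0.81 to −0.33 with a median of −0.47 on the recovered scale, and its 306 loci were all called lower (beside 60.8%). On the other scales 247 of the 306 were called lower with TMM factors (beside 25.5%) and 15 with the listed totals (beside 7.06%), where the values ran from −0.46 to 0.01 with a median of −0.13. The medians were −0.48 for the 211 loci of chromosome 3, −0.47 for the large block of 65 loci on chromosome 5 and −0.46 for the 15 loci of chromosome 4. The smaller blocks ran from −0.45 (7 loci, chr5:11184537-11310786) through −0.50 (1 locus, chr5:11975682-11975950) and −0.54 (6 loci on chromosome 1) to −0.60 (1 locus on chromosome 2). The fold change did not go with abundance across the 306 loci (Spearman rho 0.04), and only its spread did, from a range of 0.43 among the 77 least abundant loci to 0.12 among the 77 most abundant.

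The most abundant 506-bp locus, chr5:11184537-11186807, had 19046, 19629 and 18607 normalised counts in Col-0 and 14523, 13011 and 14077 in ndx1-4. The groups did not overlap, and the log2 fold change was −0.46 (SE 0.08, adjusted p = 0.000613), or −0.12 (adjusted p = 0.227) by the listed totals. The locus with the highest level per kb in this family, chr4:3054337-3054834, stood at 15962, 15758 and 15914 in Col-0 and 12337, 10538 and 11779 in ndx1-4. Col-0 libraries agreed closely there, all 3 ndx1-4 libraries were lower, and the log2 fold change was −0.46 (SE 0.08, adjusted p = 0.000762), or −0.12 (adjusted p = 0.247) by the listed totals. The most abundant member without a near-identical copy, chr3:13595682-13597369, gave 3865, 4157 and 3719 in Col-0 and 2969, 2802 and 2783 in ndx1-4, with no overlap on this scale (log2 fold change −0.46, and −0.11 with adjusted p = 0.266 by the listed totals). Shorter stretches that it shares with its family can still share reads.

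At the low end of the family the shortest loci had fewer reads. The locus chr3:14184631-14184704 had 122, 147 and 123 normalised counts in Col-0 and 84.5, 81.5 and 79.2 in ndx1-4, with a log2 fold change of −0.67 (SE 0.14, adjusted p = 0.0019), or −0.33 (adjusted p = 0.12) by the listed totals. The 40-bp locus chr5:12828500-12828539 had 628, 525 and 638 in Col-0 and 423, 334 and 438 in ndx1-4 (log2 fold change −0.59, and −0.25 with adjusted p = 0.11 by the listed totals). At the 70-bp locus chr3:13867122-13867191, one of the 2 members with overlapping genotypes, the values were 644, 655 and 551 in Col-0 and 414, 410 and 558 in ndx1-4, and the third ndx1-4 library lay above the third Col-0 library. Below the minimum of 50, a pair of 109-bp loci with identical counts, chr3:13683404-13683512 and chr3:13736389-13736497, picked out after their values were seen, had 40, 57 and 55 raw counts in Col-0 and 34, 46 and 40 in ndx1-4 and the lowest fold change of all members (log2 −0.81, and −0.46 with adjusted p = 0.149 by the listed totals).

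The 178-bp family had log2 fold changes of −0.54 to −0.21 with a median of −0.30 on the recovered scale, and its 204 loci were all called lower there (beside 60.8%), but with TMM factors or the listed totals 0 were, and by the listed totals the median was 0.04. In contrast to the 506-bp family, its fold change went with abundance (Spearman rho 0.94 across 204 loci that share libraries and reads). With the 204 loci ranked by mean normalised count and cut into 4 groups of 51, the median log2 fold change was −0.40 in the lowest group (113 to 462 normalised counts), −0.32 and −0.27 in the next, and −0.25 in the highest (1885 to 3887). Since the list held only loci that passed the authors' test, a low-count locus with a small difference could not be in it, and the part of this selection in the trend was not tested.

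The most abundant 178-bp locus, chr2:3614896-3615558, lies in AT2G07981, annotated as protein-coding. It had 4217, 4115 and 4212 normalised counts in Col-0 and 3514, 3726 and 3536 in ndx1-4. The groups did not overlap on this scale (log2 fold change −0.22, SE 0.06, adjusted p = 0.00762), and by the listed totals the value was 0.13 (adjusted p = 0.204). The locus of the printed units, chr2:3622913-3623672, lies in AT2G08986, also annotated as protein-coding, and had 3925, 3957 and 4110 in Col-0 and 3453, 3567 and 3338 in ndx1-4, the smallest difference of all members together with chr2:3616876-3617563 (both −0.21, and 0.13 by the listed totals). Without a near-identical copy, chr5:12044773-12045364 had 2327, 2349 and 2455 in Col-0 and 2009, 2010 and 1959 in ndx1-4 (log2 fold change −0.25, and 0.09 by the listed totals). At the other end, the 63-bp locus chr4:2919428-2919490 had 160, 152 and 168 in Col-0 and 88.5, 134 and 113 in ndx1-4 (log2 fold change −0.52, adjusted p = 0.0108), and there the call was lost with TMM factors (−0.28, adjusted p = 0.16), median-of-ratios factors (−0.27, adjusted p = 0.172) and the listed totals (−0.17, adjusted p = 0.45).

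**Figure D4:**
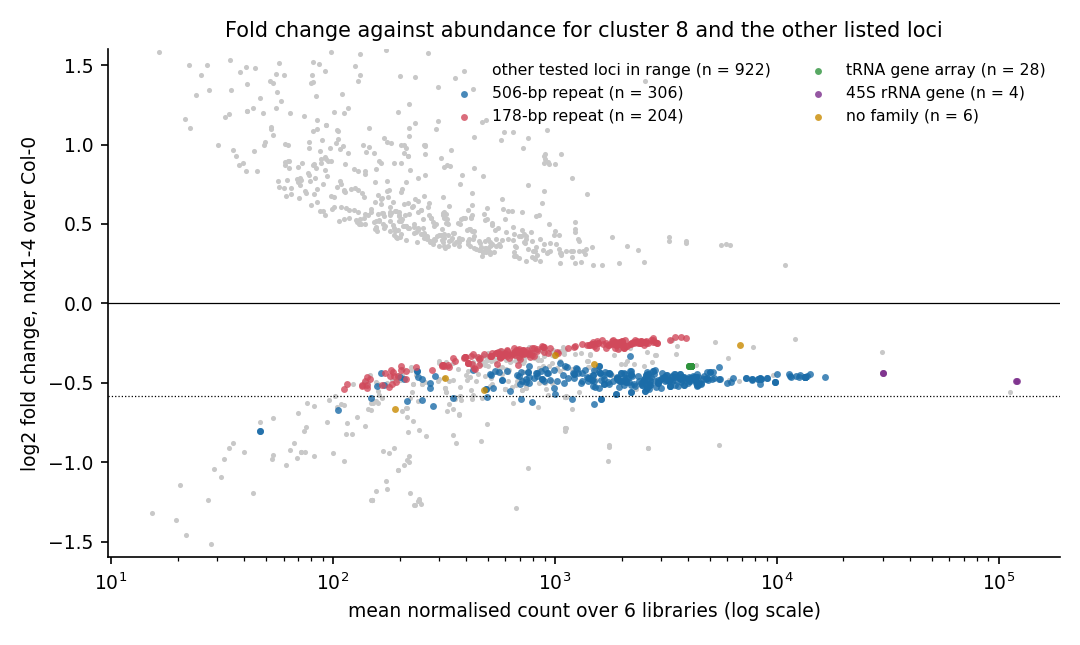
Log2 fold change of ndx1-4 over Col-0 (y, edgeR, recovered scale) against the mean normalised count over 6 libraries (x, log scale), 1 point a locus: cluster 8 coloured by family, 922 of the 1078 other tested loci in grey (the other 156 lie beyond ±1.6 on the y axis). The dotted line is a 1.5-fold reduction; the 178-bp family climbs from about −0.54 to −0.21 with abundance, the 506-bp family stays near −0.47, and the grey points leave a gap around 0 that is wider at low counts; by the listed totals the 178-bp family lies on both sides of 0.

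The family sequences also occurred at listed loci of other clusters. The 24 loci of other clusters with the 506-bp sequence were all called lower on the recovered scale (beside 60.8%), with a median log2 fold change of −0.49. Of the 88 loci of other clusters with the 178-bp sequence 87 were called lower and 1 higher, with a median of −0.34. The 28 with sequence of the tRNA array were all called lower, with a median of −0.40. These loci can count the same reads as the members and are no separate evidence.

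The tRNA array is a tandem block of tRNA-Tyr and tRNA-Ser genes on the right arm of chromosome 1. Its 28 loci had nearly the same counts (13 distinct sets), with log2 fold changes of −0.40 to −0.39, and on the listed totals their median was −0.06 with 0 called. The most abundant, chr1:21305267-21305857 with AT1G57470, had 4838, 4557 and 4603 normalised counts in Col-0 and 2859, 3665 and 4141 in ndx1-4. The ndx1-4 libraries were all lower but far apart (SD 648 against 151 in Col-0), and the log2 fold change was −0.39 (SE 0.12, adjusted p = 0.00946), or −0.05 (adjusted p = 0.713) by the listed totals. The family level in ndx1-4 was −0.71, −0.35 and −0.17 in replicates 1 to 3. Listed tRNA loci outside cluster 8 had the same order of libraries, with medians of −0.86, −0.59 and −0.24. Loci of other clusters with sequence of the array (28) can count the same reads. Over the whole list 116 loci overlapped a tRNA gene, 29 of them members. Listed tRNA loci without array sequence were not looked at apart, so this order is not taken as separate evidence.

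The 4 loci of the 45S rRNA genes lie in the copies assembled at the top of chromosome 2 and in the pericentromere of chromosome 3. Each copy gave a locus over the spacer between the 18S and 5.8S genes (chr2:5487-5810 and chr3:14199458-14199780) and a locus that runs from the 5.8S gene downstream (chr2:5811-10955 and chr3:14199889-14204770). The downstream locus on chromosome 3 was the most abundant of all listed loci, with 142006, 134257 and 145201 normalised counts in Col-0 and 94598, 81862 and 124286 in ndx1-4. The third ndx1-4 library was nearer to Col-0 than the others were, and the log2 fold change was −0.49 (SE 0.15, adjusted p = 0.00946), or −0.15 (adjusted p = 0.309) by the listed totals. The spacer locus on chromosome 3 had 36061, 31174 and 36878 in Col-0 and 26747, 24812 and 25257 in ndx1-4. There the ndx1-4 libraries were close together (log2 fold change −0.44, SE 0.09, adjusted p = 0.00189), but the call was lost with TMM factors (−0.21, adjusted p = 0.0647), median-of-ratios factors (−0.20, adjusted p = 0.0971) and the listed totals (−0.10, adjusted p = 0.401). By length it held the highest level of cluster 8, at 107443 normalised counts per kb in Col-0. Both chromosome 2 loci had almost the same counts as their partners on chromosome 3.

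The 6 loci in no family had log2 fold changes of −0.66 to −0.26 on the recovered scale. The lowest, chr4:10112420-10112502, lay in no annotated gene and had 0 near-identical copies, with 242, 233 and 229 normalised counts in Col-0 and 155, 135 and 155 in ndx1-4. The groups were well apart (log2 fold change −0.66, SE 0.11, adjusted p = 0.000594), and by the listed totals the value was −0.32 (adjusted p = 0.0527). A pair of these are copies of mitochondrial sequence in the pericentromere of chromosome 2: chr2:3437364-3437704, with a tRNA-Phe gene (AT2G05315), and chr2:3467056-3467570, with a pseudogene (AT2G07731), matched the mitochondrial genome at 100% identity over 341 and 515 bp. The counts therefore cannot tell nuclear from mitochondrial reads there. At the second of these the genotypes overlapped, with 604, 582 and 521 in Col-0 and 523, 322 and 322 in ndx1-4. The locus with the most copies, chr4:1595169-1599416, overlaps AT4G03580 (protein-coding) and had 465 near-identical alignments, with 7407, 7115 and 7754 in Col-0 and 5823, 6858 and 5861 in ndx1-4 (log2 fold change −0.26, adjusted p = 0.0115, and 0.08 by the listed totals). Without Col-0 replicate 3 the call was lost (−0.23, adjusted p = 0.0514).

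**Figure D5:**
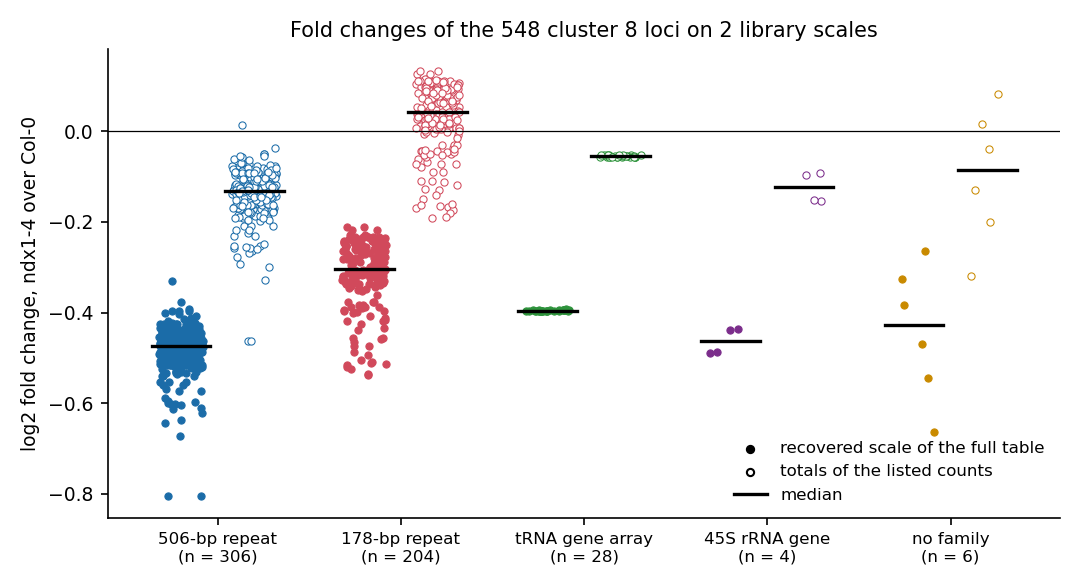
Log2 fold change of ndx1-4 over Col-0 (y) for the 548 cluster 8 loci by family (x), 1 point a locus, on the recovered scale of the full table (filled) and on the totals of the listed counts (open), with medians as bars. The whole set moves up by about the same step: the median of the 506-bp family goes from −0.47 to −0.13 and that of the 178-bp family from −0.30 to 0.04.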

How the data were processed

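Small RNA was sequenced from 5-week-old inflorescences of Col-0 and ndx1-4 plants (3 libraries each). According to the methods and the submitters' processing notes, the authors trimmed reads with Cutadapt, kept sRNA-sized reads, aligned them to a published catalogue of sRNA loci (TAIR10) with sRNAnalyzer, allowing several alignments per read, and tested genotype with DESeq2. The deposited values were raw counts per locus, for the loci that passed the authors' threshold of 0.05. The 3 columns of the authors' own comparison hold a log2 fold change, an adjusted p-value and a direction of change. The deposited log2 fold changes were used only to solve, by least squares over 999 loci (200 counts or more in each library), for the size factors of the full table, and are not reported; so the recovered scale inherits the authors' normalisation. The other 2 were not used. The full table and total reads per library were not used here.

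Counts were tested over the whole table with edgeR 4.0.16 (R 4.3.3; filterByExpr, which kept 1626 of 1633 loci, quasi-likelihood test, genotype as the only term, Benjamini-Hochberg adjustment), with a two-sided p under 0.05 as the threshold. The procedure was tested on simulated data. P-values measure the spread between these pooled-plant libraries. Family levels were medians over loci of the log2 ratio to the Col-0 mean, leaving out counts of 0, and were compared by exact two-sided permutation tests over libraries. Sequences were aligned with BLAST 2.17.0. Locus families and named loci were chosen with earlier results of these data known. Loci were named by rule: the 3 highest in mean count, in count per kb, in length and in fold change, the 3 shortest and the 3 lowest in fold change (mean of at least 50 for fold changes), the locus nearest the median fold change, and the most abundant of the largest families, without a copy, in a protein-coding gene, and outside gene-poor bins. The 45S loci, the loci in no family and a pair of low-count loci are described beyond that rule.

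Alternatives were other library scales, other filters, DESeq2 1.42.0, a stricter threshold, the replicate block, leaving out each library, and leaving out duplicated loci.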

Additional observations from a re-analysis of the deposited data

How the results depend on the processing

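The library scale moved the results most. Members called lower numbered 548 on the recovered scale, 249 with TMM factors, 215 with median-of-ratios factors and 15 with the listed totals, with median log2 fold changes of −0.44, −0.21, −0.20 and −0.10, and each of the last 3 scales gave 0 members above 1.5-fold. Median-of-ratios factors over the loci outside cluster 8 gave 548 lower, 470 of them above 1.5-fold, and a median of −0.75. Those loci were selected and had a median of 0.39 on the recovered scale, so centring on them moves every member down. For both median-of-ratios scales the share of all loci tested that was called is not given here. By the listed totals 159 of the 548 members had a positive value. Among the 22 named loci the sign changed at chr2:3616876-3617563 (0.022 with TMM, 0.0315 with median-of-ratios, 0.13 with the listed totals), chr2:3622913-3623672 (0.0221, 0.0318 and 0.13), chr4:3997358-3998512 (0.0152, 0.0253 and 0.126) and chr2:3614896-3615558 (0.0139, 0.0236 and 0.125), and with the listed totals alone at chr5:12044773-12045364 (0.0897) and chr4:1595169-1599416 (0.0812). The recovered scale itself rests on the authors' normalisation, and which scale is right was not tested. The listed totals consist mostly of cluster 8 counts (62.1 to 68.6% of a library), which draws the members toward 0. TMM and median-of-ratios factors rest on loci selected for a difference.

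Leaving out loci with a near-identical copy left 42 members, all called lower, 5 above 1.5-fold, with a median of −0.39 and a difference in share of −2.41 percentage points, by construction over fewer loci. Without each library in turn, 547 to 548 were called lower, 9 to 36 were above 1.5-fold, the median was −0.47 to −0.41, the share differed by −5.00 to −3.63 percentage points and the level relative to the other loci by −0.84 to −0.78, and 1 of the 22 named loci lost its call (chr4:1595169-1599416 without Col-0 replicate 3, −0.23, adjusted p = 0.0514). By summed counts over all 6 libraries that level differed by −0.29. With the replicate block 545 were called lower, and 3 of the 22 named loci lost the call. The samples share only a number: deviations from the group means correlated at −0.02, 0.08 and −0.16 between same-numbered libraries (1508 loci), and not every library correlated best with its own number. In windows of 250 kb, 93.4% of members were gene-poor. DESeq2, both filters on low counts, the minimum of 50 counts for recovering the scale, a threshold of 0.01 and 1 locus per count set kept the counts of members called within 1.5 times and, where a median was computed, its direction. Low counts limit the shortest loci, and strand, read length and unlisted loci were not analysed here.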
